A study of Homo sapiens with 24 samples.

Results

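Peaks at the transcript start were taken from 4 lists of N6-methyladenosine (m6A) peaks, one for each condition, in which positions are counted in bases along RefSeq transcripts. A start peak was any peak whose first base lay at most 50 bases from the first base of its transcript. There were 5284 of them among 52777 peaks, or 10.0%, on 2386 of the 9674 transcripts with a peak. All samples came from U2OS, an osteosarcoma cell line of human origin, grown with 10 µM BrdU in every condition. The KO plus UV group lacked METTL3, the catalytic subunit of the nuclear m6A methyltransferase, and received UVC at a 50 J dose, with RNA collected 2 min later. The KO minus UV group lacked METTL3 and was not irradiated, the WT plus UV group was wild type and irradiated, and the WT minus UV group was wild type and not irradiated. The labels do not say how the knockout was made or whether it was 1 clone. Polyadenylated RNA was immunoprecipitated for m6A and sequenced beside its input, with 2 immunoprecipitated (IP) libraries for KO plus UV, 3 for KO minus UV, 4 for WT plus UV and 3 for WT minus UV.

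The lists pool the replicates and hold no score or read count, which leaves the depth of each peak unknown. Replicate spread could not be measured, and the labels do not say whether replicates came from separate cultures. Intervals are 95% Wilson or Newcombe intervals, which cover counting error alone and treat peaks as independent. Whether a list lacks a peak through less methylation, less RNA or less depth cannot be told apart here. Of 11 osteoblast lineage genes, 6 had a peak in some list (RUNX2, SPARC, COL1A1, CDH11, VIM and SPP1), and ALPL, BGLAP, COL1A2, SP7 and TWIST1 had none. Of 6 blood markers 0 had a peak, of 4 epithelial markers EPCAM alone and of 5 neuronal and glial markers RBFOX3 alone. METTL3 itself had a start peak at bases 1 to 180 in KO plus UV, none in KO minus UV, one at bases 12 to 180 in WT plus UV and one at bases 13 to 180 in WT minus UV. A peak list does not give the level of a transcript and is no check of the knockout.

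The first transcribed base of a messenger RNA sits beside the cap. Where that base is an adenosine it can be methylated on the ribose and then, by the cap methyltransferase PCIF1, on the base as well, which gives m6Am. Antibodies against m6A also bind m6Am. Internal m6A, by contrast, is written by the METTL3 and METTL14 complex and is known to gather near stop codons and in long exons, within a short motif centred on AC.

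The sequences around the gene starts of named members are shown because the first base decides whether a cap-adjacent m6Am is possible at that start. Each line gives 10 bases before the start and 20 from the first transcribed base on, 5′ to 3′ on the gene's strand, from RefSeq, GRCh38.p14. The capital letter is the first transcribed base.
WDR26, chr1:224434778-224434807, minus strand: cctggactccAttaggcagcagctggggga
CHD8, chr14:21437256-21437285, minus strand: caggagcatcAggttaggttgcgcaggagg
NAA50, chr3:113746230-113746259, minus strand: ggggcggggtGaaaggtcacagcgcggcag
METTL3, chr14:21511321-21511350, minus strand: tccaggggtcAttttccggttagccttcgg
YTHDC1, chr4:68350071-68350100, minus strand: agcgcagggcAtttcgggagcgggattgtt
EIF2S1, chr14:67360318-67360347, plus strand: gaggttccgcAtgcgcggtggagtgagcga
PSMC1, chr14:90256543-90256572, plus strand: gggccgcagtGgtggaggaacttccggcag
EP300, chr22:41092582-41092611, plus strand: ttgtggcgatGagaaggaggaggacagcgc
KDM5A, chr12:389301-389330, minus strand: ggagggatttGacagcacggtaacttccgg
USP34, chr2:61471068-61471097, minus strand: agagccgagcGcagcccgagcgctctgtta
The starts of WDR26, CHD8, METTL3, YTHDC1 and EIF2S1 have A after C, and those of NAA50, PSMC1, EP300 and KDM5A have G after T. USP34 starts with G. EIF2S1, PSMC1, EP300, KDM5A and USP34 were added after their values were seen, from among the named genes with a start peak from base 1 in every list. The letters GGAC, a form of the internal m6A motif, occur within the first 50 transcribed bases of EP300 alone among these genes. The sequence table gives the start of the gene, and whether the listed transcript begins at that very base was not tested. For CHD8 it lies inside the span of the gene.

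Start peaks outnumbered those of the next 50 bases in each list. The KO plus UV list held 1043 start peaks, or 11.01% of its 9471 peaks (95% interval 10.4 to 11.7). The KO minus UV list held 1281 of 13852 (9.25%, 8.78 to 9.74), WT plus UV 1638 of 15465 (10.6%, 10.1 to 11.1) and WT minus UV 1322 of 13989 (9.45%, 8.98 to 9.95). Peaks starting 51 to 100 bases from the first base made up 3.58% of KO plus UV, 2.66% of KO minus UV, 3.21% of WT plus UV and 3.37% of WT minus UV. No transcript held more than 1 start peak in a list. Many began at the very first base: 388 in KO plus UV (37.2%), 551 in KO minus UV (43.0%), 639 in WT plus UV (39.0%) and 505 in WT minus UV (38.2%). No peak can begin before that base.

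**Figure D1:**
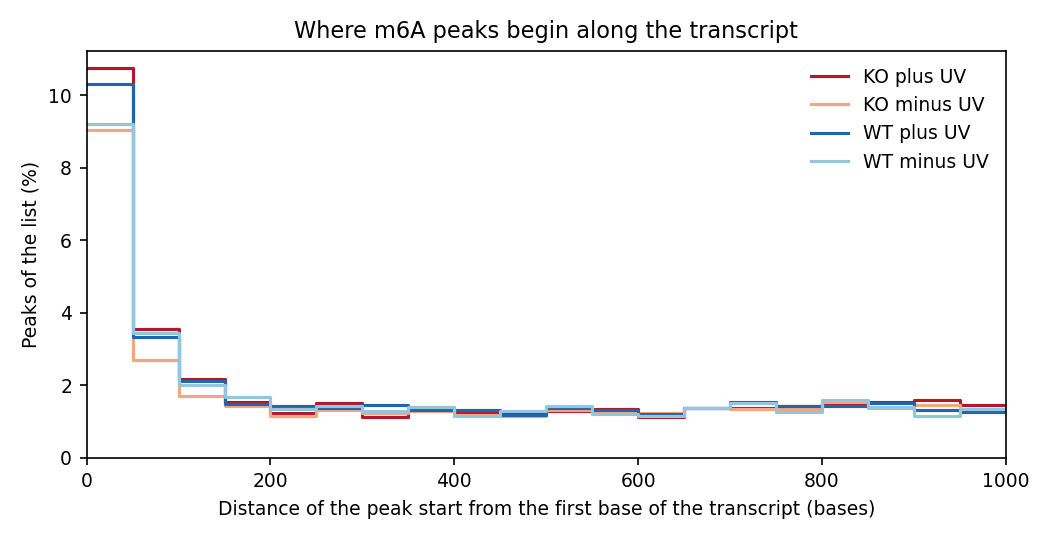
Share of each list's peaks (%) by the distance of the peak start from the first base of the transcript, in bins of 50 bases; each line is 1 list. All 4 lines stand highest in the bin at the start and are lower and close together further along the transcript.

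Start peaks were short and ended early. The choice of peaks partly sets both, since they begin at most 50 bases from the first base and cannot extend before it. The part of this limit in their widths was not tested. Their median last base was 150 in KO plus UV, 159 in KO minus UV, 166 in WT plus UV and 166.5 in WT minus UV, and 73.9% to 82.3% of them ended within the first 200 bases. The median width was 140 bases in KO plus UV (quartiles 110 and 168), against 180 for the other peaks of that list. It was 148 in KO minus UV against 187, 155 in WT plus UV against 192 and 153.5 in WT minus UV against 190. Peaks from base 1 were narrower (medians 138, 140, 140 and 146 in the same list order) than start peaks that began after it (146, 157, 163 and 161). The smallest width in the lists, 100 bases, was held by 19.8% of start peaks in KO plus UV against 8.33% of its other peaks, 13.1% against 5.19% in KO minus UV, 11.2% against 3.79% in WT plus UV and 14.1% against 6.07% in WT minus UV. Start peaks of 350 bases or more numbered 6 in KO plus UV, 9 in KO minus UV, 24 in WT plus UV and 24 in WT minus UV. They made up 0.575%, 0.703%, 1.47% and 1.82% of start peaks in that order. Among the other peaks such widths made up 3.82%, 4.72%, 5.84% and 5.27%. The widest start peak was that of APBA3, which ran from base 3 to 604 in WT minus UV.

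**Figure D2:**
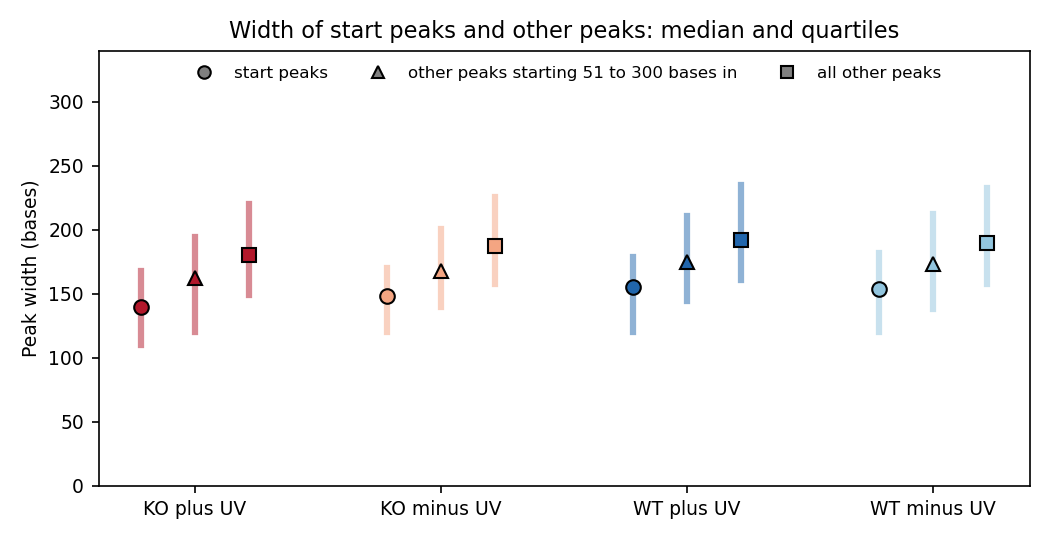
Peak width in bases by list: points are medians and bars span the quartiles, for start peaks, other peaks starting 51 to 300 bases from the first base, and all other peaks. Start peaks have the lowest median in each of the 4 lists.

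Members near the limit resembled their neighbours outside it. Peaks starting 41 to 50 bases from the first base numbered 92, 103, 176 and 143 in KO plus UV, KO minus UV, WT plus UV and WT minus UV, with median widths of 155.5, 155, 169 and 169. Just outside, at 51 to 60 bases, there were 85, 100, 133 and 110 peaks with median widths of 161, 160, 170 and 173.5.

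The start peaks lay on 2374 genes, or 24.8% of the 9560 genes with a peak. Of the 5284, 28 on unmatched transcripts were left out of gene counts, and 57 lay on transcripts numbered as 1 copy of several. Of the genes with a peak in a list, 18.8% had a start peak in KO plus UV, 18.3% in KO minus UV, 20.4% in WT plus UV and 18.4% in WT minus UV. A start peak in every list was found on 431 genes (4.51% of the genes with a peak), in 3 lists on 507, in 2 on 575 and in 1 on 861. Noncoding transcripts carried 28, 40, 51 and 33 of the start peaks in the same list order. That was 2.68%, 3.12%, 3.11% and 2.50% of start peaks, against 1.77%, 2.24%, 2.40% and 2.27% of the other peaks.

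Ranked by summed width, the genes with a start peak in every list began with WDR26, a subunit of the CTLH ubiquitin ligase (chromosome 1, 224385146 to 224434797, GRCh38). Its start peak covered bases 1 to 496 in KO plus UV, 1 to 310 in KO minus UV, 1 to 512 in WT plus UV and 1 to 513 in WT minus UV, so it was shortest in KO minus UV. PMEPA1, a membrane protein that dampens TGF-beta signalling (chromosome 20, 57648396 to 57711472), had start peaks at bases 1 to 510, 1 to 160, 1 to 510 and 1 to 520 in the same list order, again shortest in KO minus UV. NAA30, the catalytic subunit of the N-terminal acetyltransferase NatC, had them at 30 to 160, 39 to 537, 39 to 536 and 41 to 533, shortest in KO plus UV. The chromatin remodeller CHD8 (chromosome 14, 21385199 to 21456123) varied little, with peaks at 38 to 410, 34 to 419, 40 to 419 and 50 to 409. NAA50, another N-terminal acetyltransferase, was as steady, at 6 to 358, 7 to 353, 9 to 354 and 10 to 359. ITGA6, the integrin alpha 6 chain, ranged most, at 6 to 140, 1 to 350, 5 to 579 and 2 to 410. INPP5A, an inositol phosphatase, and HCFC1, a transcriptional coregulator, both had peaks from base 1 in every list, with last bases of 340, 350, 200 and 420 for INPP5A and 240, 340, 340 and 370 for HCFC1.

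For 576 genes (24.3% of those with a start peak) the start peaks were the only peaks in any list. EIF1AX, which encodes a factor of start codon selection (chromosome X, 20124525 to 20141838), was the first of these, with peaks at 36 to 354 in KO plus UV, 27 to 349 in KO minus UV, 33 to 358 in WT plus UV and 46 to 355 in WT minus UV. NDUFB8, a subunit of respiratory complex I, had one at 33 to 280, 30 to 290, 21 to 250 and 32 to 250. The histone variant gene MACROH2A1 had one at 1 to 190 in KO plus UV and at 1 to 250 in each of the other lists. The pseudogene SMG1P5, part of a family of near-identical copies between which reads may be split, had one in 3 lists. In a list, 32.8% to 44.2% of the genes with a start peak had no further peak there. Of the genes without a start peak in the list, 50.0% to 57.8% had a single peak.

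At the other end, start peaks also lay on transcripts with many further peaks. EP300, a histone acetyltransferase (chromosome 22, 41092592 to 41180077), carried 8 peaks in each list, the first at 1 to 137 in KO plus UV, 1 to 161 in KO minus UV, 1 to 133 in WT plus UV and 1 to 137 in WT minus UV. TET3, a 5-methylcytosine dioxygenase, had start peaks at 1 to 120 in KO minus UV and 1 to 150 in WT plus UV and none in KO plus UV or WT minus UV, beside 32 other peaks over the 4 lists. GLI3, a transcription factor of Hedgehog signalling, had one in KO minus UV alone, at 1 to 120, beside 27 others. For JRK it was WT minus UV alone, at 11 to 110, also beside 27 others.

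Gene groups differed in how many of their members had a start peak. The groups were chosen with earlier results of these data known, and the counts are descriptions. Among proteasome genes with a peak, 17 of 35 (48.6%, 33.0 to 64.4) had a start peak in some list, 9 of them in every list, against 24.8% over all genes with a peak. PSMC1, an ATPase of the proteasome cap, had one at bases 1 to 172 in KO plus UV, 1 to 166 in KO minus UV, 1 to 173 in WT plus UV and 1 to 174 in WT minus UV. PSMC6, another such ATPase, had one at 1 to 160, 1 to 190, 1 to 180 and 2 to 170. PSMB1, a core subunit, had one at 8 to 171, 10 to 171, 12 to 175 and 12 to 175, and the cap subunit PSMD1 one at 8 to 172, 6 to 165, 8 to 170 and 9 to 172. These 4 genes thus kept nearly the same interval in each list. PSMA5 had one in every list but WT minus UV and PSMA4 in every list but KO plus UV, while PSMD12 had one in KO minus UV and WT plus UV.

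Respiratory chain genes had a start peak in 25 of 53 cases (47.2%, 34.4 to 60.3), with 6 in every list. NDUFAB1, the mitochondrial acyl carrier protein, had one at 25 to 239 in KO plus UV, 20 to 220 in KO minus UV, 40 to 261 in WT plus UV and 24 to 262 in WT minus UV. NDUFA8, a complex I subunit, had one at 30 to 196, 34 to 196, 34 to 196 and 31 to 130, and ATP5MC3, a subunit of the ATP synthase ring, one at 50 to 242, 49 to 215, 51 to 230 and 11 to 110. NDUFS1 of complex I lacked one in KO plus UV, where a peak further in overlapped the place, SDHC of complex II lacked one in KO minus UV, and ATP5F1A, the ATP synthase alpha subunit, had one in the KO lists alone. The peaks of this group did not reach far along the transcript, with a median furthest end at base 290, and 41 of its 53 genes lay in the lowest quintile of the furthest peak end. In that quintile 44.5% of all genes had a start peak, against 19.9% in the other quintiles together. A start peak can itself be the furthest peak, however, and none ended beyond base 604, while this quintile reached base 845. The 576 genes with no other peak thus fell in this quintile by construction. Within it, 22 of 41 respiratory chain genes and 10 of 18 proteasome genes had one. In the other quintiles it was 3 of 12 and 7 of 17. The split does not measure transcript length, and the part of length in the group shares was not tested.

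**Figure D3:**
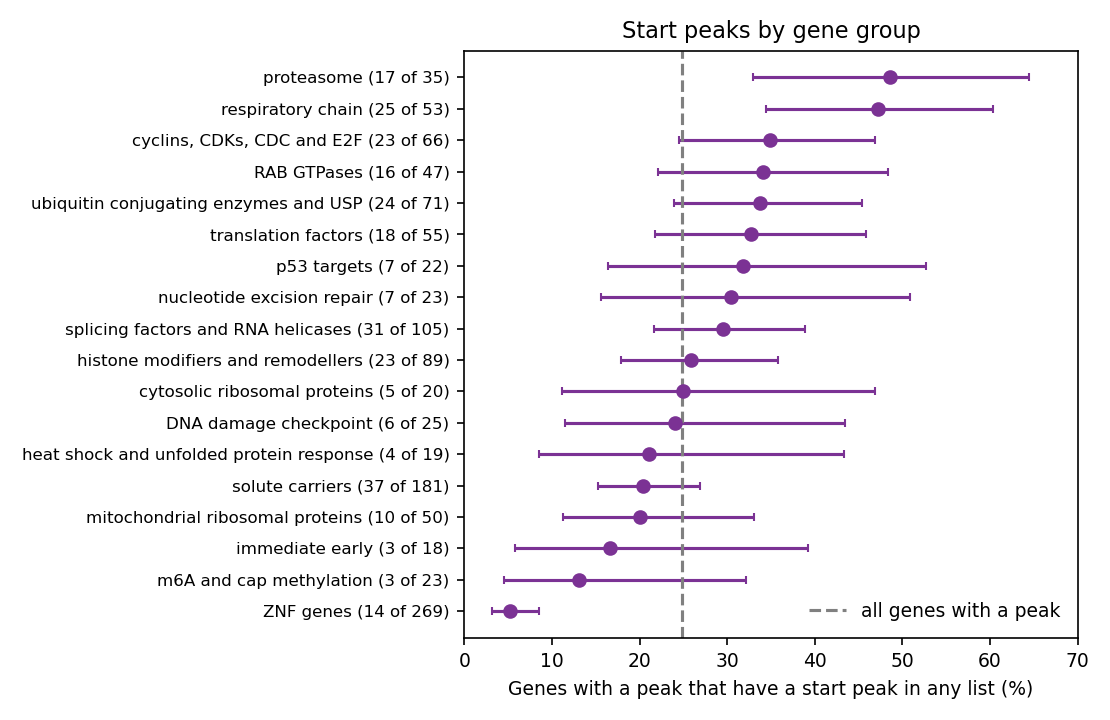
Share of the genes with a peak that had a start peak in any list (%), by gene group, with 95% Wilson intervals and the counts beside each name; the dashed line marks all genes with a peak. Proteasome and respiratory chain genes lie highest and ZNF genes lowest.

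ZNF genes stood at the low end, with 14 of 269 (5.20%, 3.13 to 8.55), 2 of 33 in the lowest quintile of the furthest peak end and 12 of 236 in the others. ZNF512 alone of them had a start peak in every list, at 46 to 177 in KO plus UV, 37 to 177 in KO minus UV, 35 to 177 in WT plus UV and 46 to 177 in WT minus UV. ZNF609 had one in both WT lists, at a place that peaks of both KO lists also covered. The pseudogenes ZNF321P, without one in WT plus UV, and ZNF271P, without one in KO plus UV, may share reads with related genes. Solute carrier genes had one in 37 of 181 cases (20.4%). The creatine transporter gene SLC6A8 had one from base 1 in every list, with last bases of 210, 200, 220 and 210, and SLC7A11, the cystine transporter, lacked one in KO plus UV.

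Genes of translation and splicing lay between these. Of the EIF and EEF family genes, 18 of 55 (32.7%) had a start peak and 4 had one in every list. EIF2S1, the alpha subunit of initiation factor eIF2, had one from base 1 to 150, 150, 149 and 150 in KO plus UV, KO minus UV, WT plus UV and WT minus UV. EIF1, a factor of start codon selection, had one at 11 to 175, 5 to 175, 4 to 175 and 11 to 176. The eIF3 subunit gene EIF3B ended at 150 in both KO lists, at 280 in WT plus UV and at 320 in WT minus UV. EIF2S2, the eIF2 beta subunit, had one in the WT lists alone and EEF1E1 in the UV lists alone. Splicing factors and RNA helicases had a start peak in 31 of 105 cases (29.5%), 11 in every list. SRSF3, a serine and arginine rich splicing factor, had one at 11 to 166, 8 to 164, 11 to 165 and 12 to 173, and the helicase gene DDX50 one at 37 to 198, 38 to 197, 38 to 207 and 38 to 200. Both varied by only a few bases at either end in each list.

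Of 89 symbols counted as cytosolic ribosomal proteins, 20 had a peak in some list and 5 of these a start peak (25%, 11.19 to 46.87). Among these, RPS27L had one in every list, RPL7 in every list but KO plus UV and RPLP1 in KO plus UV alone, where a KO minus UV peak covered the same place. Mitochondrial ribosomal protein genes had a start peak in 10 of 50 cases (20%, 11.24 to 33.04), 0 in every list. MRPL37 and MRPS28 lacked one in KO minus UV and MRPL22 in WT minus UV. The intervals of both ribosomal groups include the 24.8% of all genes with a peak. Of all genes with a peak, only 4.51% had a start peak in every list.

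Among histone modifiers and chromatin remodellers 23 of 89 (25.8%) had a start peak, close to the 24.8% of all genes, with 8 in every list. HDAC6, a tubulin deacetylase, had one at 22 to 310 in KO plus UV, 4 to 300 in KO minus UV, 13 to 280 in WT plus UV and 10 to 330 in WT minus UV. KDM5A, a histone H3 lysine 4 demethylase, had one from base 1 to 170, 296, 283 and 250. The remodeller gene CHD4 had one at 45 to 277, 42 to 296, 46 to 260 and 46 to 270. CHD3, SMARCC1 and the histone H4 lysine 20 methyltransferase gene KMT5A had a start peak in every list but KO plus UV. Cyclin, CDK, CDC and E2F genes had one in 23 of 66 cases (34.8%), with CCND2, CCNG2, CDC16, a subunit of the anaphase-promoting complex, and CDC6, a replication licensing factor, among the 6 in every list. CDK19, CDC27 and CDC42BPB lacked one in KO plus UV. For RAB GTPase symbols it was 16 of 47 (34.0%, 22.2 to 48.3), with RAB7A of late endosomes, RAB31 and the divergent transcript RAB30-DT in every list. For ubiquitin conjugating enzymes and USP deubiquitinases it was 24 of 71 (33.8%, 23.9 to 45.4), with USP10 and USP34 in every list. USP34 held the narrowest of these, from base 1 to 100, 100, 106 and 104, whereas USP9X and UBE2Q1 lacked a start peak in KO plus UV.

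Of nucleotide excision repair genes 7 of 23 had a start peak (30.4%, 15.6 to 50.9), against 24.8% over all genes with a peak. ERCC3, a helicase of TFIIH (chromosome 2, 127257290 to 127294144), had one in every list, at 22 to 244 in KO plus UV, 12 to 245 in KO minus UV, 22 to 267 in WT plus UV and 23 to 270 in WT minus UV. ERCC8, a factor of transcription-coupled repair, had one at 1 to 130 in KO minus UV and 11 to 130 in WT minus UV and none in either UV list, and RPA1, of the single-strand binding complex RPA, had one at 15 to 170 in KO minus UV and 15 to 177 in WT plus UV. XPC, the damage sensor, had one of 100 bases in KO plus UV and in WT minus UV, and a WT plus UV peak covered the same place. Checkpoint genes had one in 6 of 25 cases (24.0%, 11.5 to 43.4) and 0 in every list. WEE1, the kinase that holds CDK1 inactive, had one in the WT lists, TIPIN in KO minus UV alone and CHEK2 in WT minus UV alone, at a place that a WT plus UV peak also covered. Of p53 targets 7 of 22 had one (31.8%, 16.4 to 52.7). PLK2 and GADD45A were among them with 3 lists each, and TP53INP1 with the WT lists. For PLK2 a KO minus UV peak that began further in overlapped the place. Among immediate early genes it was 3 of 18 (16.7%, 5.84 to 39.2). CCN1, from base 1, and CCN2, at 30 to 218, 26 to 220, 27 to 218 and 31 to 219, had one in every list, and BTG2 in the KO lists alone. Heat shock and unfolded protein genes had a start peak in 4 of 19 cases (21.1%, 8.51 to 43.3). HSPD1, the mitochondrial chaperonin, alone of these had one in every list. The intervals of these groups all include 24.8%.

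In the m6A and cap methylation group, the share with a start peak was 13.04% (4.54 to 32.13). This interval includes the 24.8% of all genes with a peak. In this group, 3 of 23 genes with a peak had a start peak. Besides METTL3, these were YTHDC1, the nuclear m6A reader, at 31 to 130 in KO plus UV and 21 to 120 in WT plus UV, and IGF2BP2, an RNA-binding protein described as an m6A reader, at 1 to 120 in KO minus UV, 1 to 140 in WT plus UV and 1 to 130 in WT minus UV. YTHDC1 thus had a start peak in both UV lists and in neither list without UV, and both of its start peaks were 100 bases wide. The cap ribose methyltransferase gene CMTR1 had a peak in every list that began just outside the 50 bases, at base 61 in KO plus UV, 73 in KO minus UV, 80 in WT plus UV and 87 in WT minus UV.

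Comparing the lists with and without UV asked whether start peaks made up another share of the peaks after irradiation. In KO cells, the start share was 11.01% with UV against 9.25% without, a difference of 1.76 percentage points (0.976 to 2.56). In WT cells it was 10.6% with UV against 9.45% without, a difference of 1.14 points (0.454 to 1.83). In KO cells the next 50 bases also held a larger share with UV, 3.58% against 2.66% (difference 0.923, 0.469 to 1.39), whereas in WT cells it was 3.21% against 3.37% (difference -0.160, -0.571 to 0.247). Per gene, the difference in the share with a start peak was 0.535 points in KO cells (-0.835 to 1.91) and 2.03 in WT cells (0.766 to 3.29). The UV list rested on 2 IP libraries against 3 in KO cells and on 4 against 3 in WT cells. The part of library number or depth in these differences was not tested.

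Of the WT plus UV start peaks, 584 (35.7%, 33.4 to 38.0) had no overlapping peak in WT minus UV, against 30% of all peaks of that list. Of the WT minus UV start peaks, 278 (21.03%, 18.9 to 23.3) had no overlapping peak in WT plus UV, against 22.4% of all its peaks. In KO cells, 327 KO plus UV start peaks (31.4%, 28.6 to 34.2) had none in KO minus UV, against 22.6% of all its peaks, and 553 KO minus UV start peaks (43.2%, 40.5 to 45.9) had none in KO plus UV, against 47.0%. The difference from the other peaks of the list was 6.38 points for WT plus UV (3.97 to 8.85), -1.51 for WT minus UV (-3.75 to 0.880), 9.85 for KO plus UV (6.97 to 12.9) and -4.27 for KO minus UV (-7.09 to -1.40). These differences depended on the peaks compared. Where both lists marked the transcript they were 3.48 points for KO plus UV (1.01 to 6.21) and 3.14 for WT plus UV (0.957 to 5.49). Against other peaks 51 to 300 bases from the first base, the KO plus UV difference was 3.57 (-0.458 to 7.57) and the KO minus UV difference 1.91 (-2.04 to 5.83). The WT plus UV difference was then larger, at 8.48 (5.22 to 11.7), and that of WT minus UV 1.15 (-1.90 to 4.20). Among peaks of at least 150 bases the WT plus UV difference was -0.644 (-3.43 to 2.35) and that of KO plus UV 8.07 (4.27 to 12.3). For KO minus UV it was -4.28 (-8.14 to -0.284) and for WT minus UV -4.53 (-6.95 to -1.735). Between 44.6% and 67.1% of the start peaks without an overlap in these pairs lay on transcripts with no peak at all in the other list, and in all 4 directions they were narrower by median than those with an overlap, for example 132.5 against 163 bases in WT plus UV.

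Start peaks present in both UV lists with no peak at that place in either list without UV were found on 71 genes eligible to be named. Merged start regions with a peak in the UV lists alone numbered 84, and there a start peak in 1 of the lists was enough. They made up 3.52% of start regions, against 1.79% for this pattern among other regions. STYXL1, a pseudophosphatase gene, had a start peak at 9 to 240 in KO plus UV and 26 to 270 in WT plus UV. B3GALNT2, a glycosyltransferase gene, had one at 25 to 230 and 25 to 220, the peptidase gene NLN one at 37 to 228 and 37 to 230, and MCUB, of the mitochondrial calcium uniporter, one at 41 to 220 and 39 to 230. PDCD7, of the minor spliceosome, had one at 19 to 193 and 20 to 190, and the sixth was the pseudogene PLEKHA8P1. The mirror set, both lists without UV and neither UV list, held 47 such genes. By the same region rule it held 50 regions, or 2.10% of start regions against 3.90% of other regions. APAF1, the core of the apoptosome (chromosome 12, 98645290 to 98735433), had peaks at 1 to 262 in KO minus UV and 1 to 304 in WT minus UV, and STAG2, a cohesin subunit, at 46 to 307 and 1 to 301. CELSR3, a cadherin receptor, had them at 10 to 281 and 3 to 280, the ubiquitin ligase gene HACE1 at 11 to 200 and 28 to 290, and the adhesion gene NEGR1 at 23 to 180 and 31 to 310. CHKB-CPT1B, a readthrough transcript that overlaps its component genes, completed the 6. STYXL1, MCUB, PLEKHA8P1, APAF1, HACE1 and CHKB-CPT1B had no peak of any kind in the 2 lists that lacked the start peak.

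The genotypes were compared to see how many start peaks were found without METTL3. Of the KO minus UV start peaks, 427 (33.3%, 30.8 to 36.0) had no overlapping peak in WT minus UV, against 31.1% of all peaks of that list. Of the WT minus UV start peaks, 508 (38.4%, 35.8 to 41.1) had none in KO minus UV, against 32.1% of all its peaks. Both lists came from 3 IP libraries. With UV, 232 KO start peaks (22.2%, 19.8 to 24.9) overlapped no WT peak, against 19.3% of all, and 841 WT start peaks (51.3%, 48.9 to 53.8) overlapped no KO peak, against 51% of all. The difference from the other peaks of the list was 2.51 points for KO minus UV (-0.147 to 5.26), 6.94 for WT minus UV (4.23 to 9.71), 3.33 for KO plus UV (0.766 to 6.08) and 0.435 for WT plus UV (-2.12 to 2.99). Where both lists marked the transcript, the KO plus UV difference was -0.0793 (-2.26 to 2.37), and against other peaks 51 to 300 bases from the first base the KO minus UV difference was 5.77 (2.09 to 9.40). In KO minus UV, 14.2% of start peaks overlapped a peak in neither WT list, against 17.3% of the other peaks (difference -3.05, -4.98 to -0.933), and in KO plus UV 15.7% against 13.6% (difference 2.17, -0.0392 to 4.62). Start peaks found in a WT list and overlapping a peak in neither KO list made up 28.7% of WT plus UV and 27.2% of WT minus UV, against 25.8% and 25.3% of the other peaks. These differences were 2.92 points (0.656 to 5.27) and 1.96 points (-0.492 to 4.54).

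**Figure D4:**
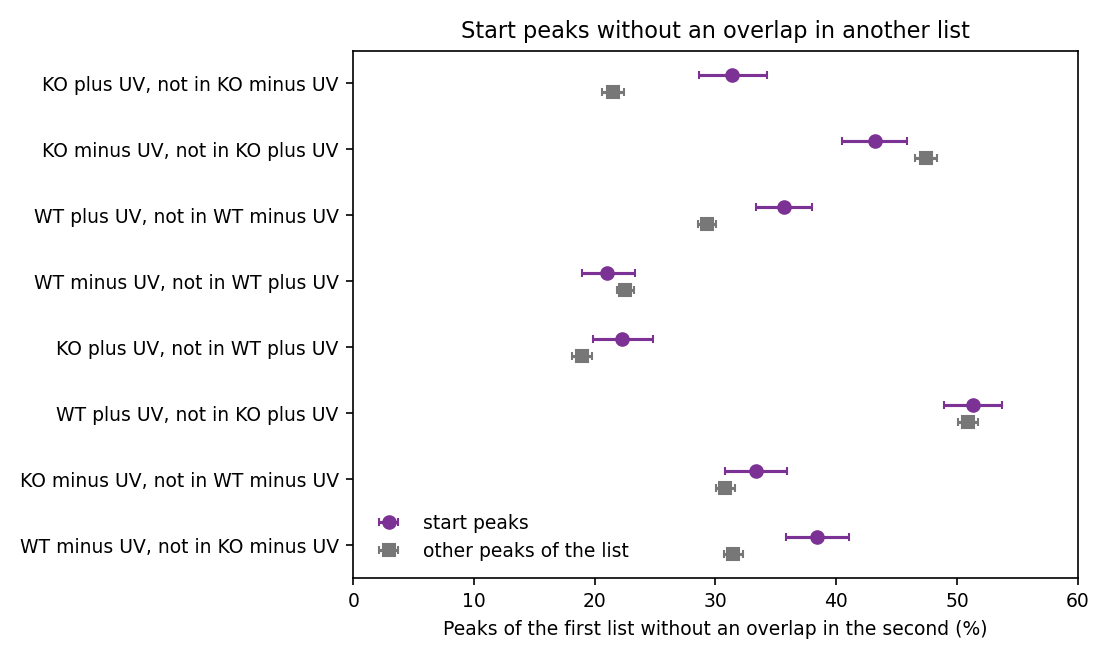
Share of a list's peaks without an overlap of at least 1 base in a second list (%), for start peaks and for the other peaks of the same list, with 95% Wilson intervals. The start peaks of KO plus UV, 31.4% of which are not in KO minus UV, lie furthest from the other peaks of their list.

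Start peaks were narrower than other peaks, and the part of width in these shares was not tested beyond width classes. Among peaks of 101 to 149 bases, the share without an overlap was lower for start peaks than for other peaks in all 8 directions, for example 40.5% against 50.1% for KO minus UV peaks not in WT minus UV and 42.3% against 48.3% for WT minus UV peaks not in KO minus UV. At 150 to 199 bases it was lower in 7 of 8, the exception being KO plus UV not in KO minus UV (22.9% against 21.2%). At exactly 100 bases it was higher for start peaks in 4 of 8, including KO plus UV not in KO minus UV (44.2% against 35.3%, difference 8.85, 1.31 to 16.5) and WT plus UV not in WT minus UV (66.7% against 57.4%, difference 9.22, 0.984 to 16.9). At 250 bases or more, KO plus UV not in KO minus UV was also higher (9 of 45 start peaks against 8.20% of other peaks, difference 11.8, 2.55 to 25.7). At 200 to 249 bases the share was far higher for start peaks in 2 directions: 34.7% against 13.4% for KO plus UV not in KO minus UV, on 72 start peaks, and 42.5% against 23.9% for WT minus UV not in KO minus UV, on 127. At that width it was lower for WT plus UV not in WT minus UV (15.2% against 22.6%, difference -7.36, -12.6 to -0.307). The intervals of the remaining directions included 0. Against the other peaks that began 51 to 300 bases from the first base, WT minus UV start peaks not in KO minus UV differed by 1.38 points (-2.29 to 5.04). On transcripts that both lists marked they differed by 5.20 points (2.65 to 7.93). Among peaks of at least 150 bases they differed by 4.17 points (0.754 to 7.78).

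Genes with start peaks in both KO lists and no WT peak at that place numbered 57. Regions with a peak in the KO lists alone made up 2.81% of start regions, where 1 start peak was enough, and 2.50% of other regions. These shares lie close together. TMEM65 had peaks at 10 to 260 in KO plus UV and 9 to 260 in KO minus UV, SLC12A2, the sodium, potassium and chloride cotransporter, at 1 to 240 and 1 to 150, and PIANP at 31 to 220 and 22 to 210. KIRREL1, an adhesion molecule, had them at 29 to 229 and 31 to 200, and IGSF8 at 11 to 180 and 30 to 200. PIANP had no WT peak of any kind. In both WT lists, with no KO peak there, such genes numbered 173. By the same region rule, a peak in the WT lists alone was found in 9.05% of start regions against 7.76% of other regions. UBE2G1, a ubiquitin conjugating enzyme gene (chromosome 17, 4269259 to 4366675), had peaks at 20 to 290 in WT plus UV and 23 to 395 in WT minus UV and no KO peak of any kind. TMEM150A had them at 21 to 300 and 20 to 270, MICAL1, an actin-oxidising enzyme gene, at 11 to 265 and 1 to 260, and GTPBP8 at 1 to 300 and 1 to 170, all with 0 KO peaks. CMIP, at 41 to 278 and 41 to 275, and SLC25A46, of the mitochondrial outer membrane, at 1 to 340 and 1 to 120, had a peak elsewhere on the transcript in at least 1 KO list.

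Where start peaks of a pair of lists overlapped each other, they began at nearly the same base. The choice of peaks fixed part of this. Both first bases had to lie at most 50 bases from the first base of the transcript, and no peak can begin before it. These distances were not taken for other peaks. Of 772 overlapping pairs of KO minus UV and WT minus UV, 310 (40.2%) shared the first base, 263 of them at base 1, with a median distance of 2 bases between first bases and 20 between last bases. For KO plus UV and WT plus UV it was 322 of 743, with median distances of 1 and 15 bases. For KO plus UV and KO minus UV it was 277 of 664, with 2 and 10 bases, and for WT plus UV and WT minus UV 438 of 978, with 1 and 10. The KO peak was the wider one in 306 pairs without UV and the WT peak in 404, with a median difference of -1 base. With UV these counts were 268 and 402 (median -2).

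Merging the overlapping peaks of all lists gave 2386 regions at a transcript start. A region counted as such if a peak of any list in it was a start peak. Regions with peaks in more lists thus had more chances to qualify. The part of this rule in the shares below was not tested. Of these, 572 (24.0%) held a peak in every list, against 25.9% of the other regions. A peak in exactly 3 lists was found in 25.1% of start regions against 20.3% of the others (difference 4.75 points, 2.95 to 6.62), and in a single list in 27.2% against 32.2% (difference -4.995, -6.87 to -3.05). The most frequent sets after every list were all but KO plus UV (282, or 11.8% against 12.4% of the other regions), WT plus UV alone (265, 11.1% against 10.8%), both WT lists (216) and WT minus UV alone (163, 6.83% against 8.75%).

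**Figure D5:**
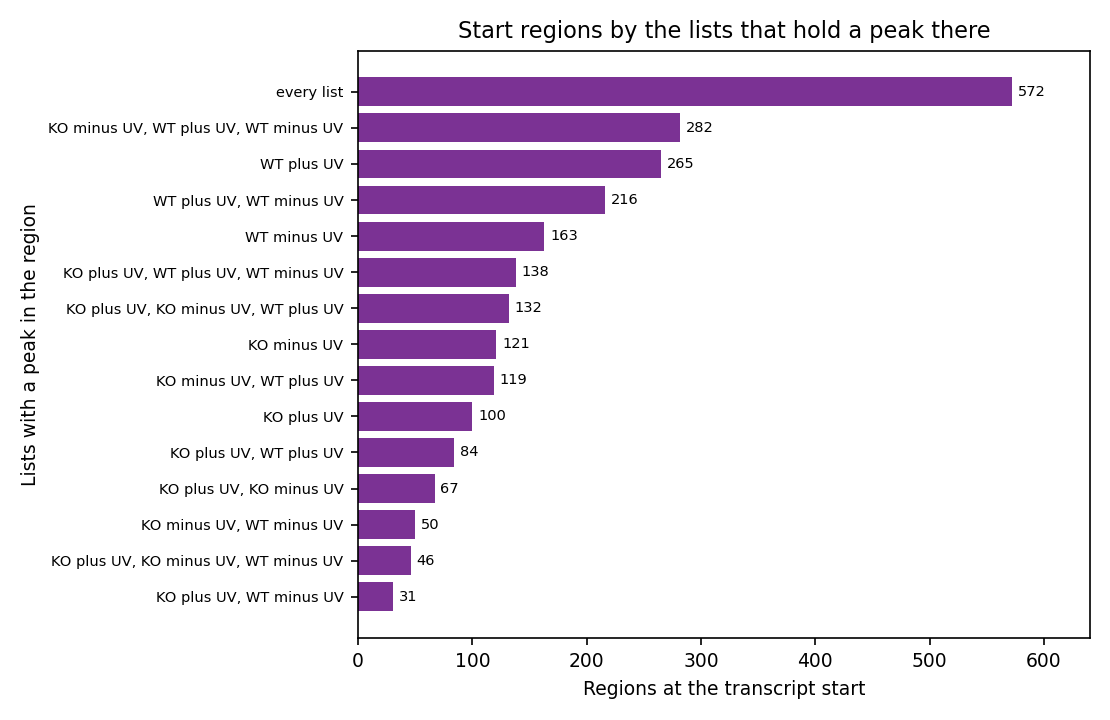
Number of merged regions at a transcript start by the lists that hold a peak there. The bar for every list (572) is the longest, followed by all lists but KO plus UV (282).

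The named genes of KO plus UV alone were POGLUT3 (1 to 240), the cyclin-dependent kinase gene CDK14 (18 to 240), the pseudogene ANKRD20A5P (1 to 220) and QTRT1, of the enzyme that puts queuine into tRNA (41 to 216). For KO minus UV alone they were FMR1, an RNA-binding translational regulator (21 to 240), the Polycomb gene PHC3 (17 to 220), PITPNA (38 to 232) and the caveolin gene CAV2 (46 to 237). For WT plus UV alone they were NOM1 (23 to 380), INTS6L (13 to 320), the histone H3 lysine 9 demethylase gene KDM4B (1 to 300) and ASPHD1 (1 to 250). For WT minus UV alone they were the RNA methyltransferase gene TARBP1 (51 to 310), the readthrough transcript GPR75-ASB3 (1 to 230), RASEF (1 to 230) and the signalling adaptor gene GAB1 (26 to 246).

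The first base of the gene was a property the choice of peaks did not use. Of 2374 genes with a start peak, 1456 had exactly 1 start in the RefSeq sequence table. Of these, 53.7% (51.1 to 56.3) began with A, against 43.8% of 3950 genes with peaks elsewhere only, a difference of 9.91 points (6.91 to 12.9). C was the first base in 6.94% against 12.5% (difference -5.54, -7.15 to -3.81) and G in 39.0% against 43.1% (difference -4.10, -7.02 to -1.14). A preceded by C, that is CA with the A as first base on the gene's strand, was found in 40.6% against 32.9% (difference 7.70, 4.804 to 10.6). The share with A was 58.8% for genes with a start peak in every list and 51.7% for those with one in a single list (difference 7.11, -0.193 to 14.2). By list it was 54.6% in KO plus UV, 56.0% in KO minus UV, 54.5% in WT plus UV and 55.1% in WT minus UV. The lists share many genes, and these 4 shares lay close together.

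The share with A differed with the distance of the nearest peak. It was 54.3% for genes whose nearest peak began at the first base, 54.1% at 1 to 20 bases, 52.6% at 21 to 50 and 53.1% at 51 to 100. Beyond, it was 46.1% at 101 to 200 bases, 41.6% at 201 to 300, 43.0% at 301 to 600, 42.1% at 601 to 1200 and 43.0% further on. The set the genes are read against matters, however. Over all 11786 protein-coding genes with 1 start there, 51.5% began with A, and over the 6512 of them with no peak in any list 55.5% did, so the start peak genes differed by 2.16 points (-0.557 to 4.87) and by -1.74 points (-4.58 to 1.08). The set of all protein-coding genes contains the coding start peak genes themselves. Intervals against that set, here and below, treat the groups as separate. C as first base stayed less frequent in start peak genes against either set, by -4.05 points (-5.38 to -2.53) and by -4.27 points (-5.71 to -2.67). The sign of the G difference turned, to 2.97 points against all protein-coding genes (0.346 to 5.64) and 7.98 points against those with no peak (5.25 to 10.7). The difference for A preceded by C was smaller, at 2.95 points against all protein-coding genes (0.308 to 5.64). Against those with no peak it was 1.05 points (-1.72 to 3.85).

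A C followed by 4 pyrimidines, the opening of the terminal oligopyrimidine tract of many ribosomal protein mRNAs, began 2.47% of start peak genes against 5.87% of genes with peaks elsewhere only and 3.98% of all genes of the table (difference from the genes with peaks elsewhere -3.40, -4.43 to -2.24). The letters GGAC lay within the first 50 transcribed bases of 21.1% of start peak genes, against 18.4% of genes with peaks elsewhere only (difference 2.71, 0.338 to 5.17) and 18.7% of all genes of the table. Against all protein-coding genes the GGAC difference was 1.38 points (-0.770 to 3.66) and against those with no peak 0.907 points (-1.34 to 3.28), and both intervals include 0. Their reverse complement GTCC lay there in 16.7% against 20.6% (difference -3.94, -6.18 to -1.59) and 17.5% of all. GGACT, which contains GGAC, was found in 4.95% against 4.81% (difference 0.135, -1.09 to 1.52), with 4.92% of all, and its reverse complement AGTCC in 4.12% against 4.89%, with 4.83% of all. Mean GC content of these 50 bases was 68.1% in start peak genes and 67.6% in genes with peaks elsewhere only.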

How the data were processed

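The deposited lists, 1 per condition for all its replicates, hold other values than signal: each entry that the authors deposited is a RefSeq accession with the first and last base of a peak along that transcript, counted from 1. Reads were aligned with TopHat2 2.0.14 to hg38, per the submitters' processing notes. How peaks were called, at which threshold and with what use of the inputs, was not given in the sources used here. Distance from the first base was the peak's first position minus 1, and peaks at 50 or less were members. Accessions were matched to genes without version through a RefSeq table (GRCh38.p14). Peaks sharing at least 1 base on a transcript overlapped. The furthest peak end stood in for transcript length, although a start peak can itself set it. With 1 list per condition, conditions were compared without a test. Code for overlaps was tested on simulated data (Python 3.11.15, scipy 1.17.1).

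Members and gene lists were chosen with earlier results of these data known. Named genes, without LOC, LINC, open reading frame, copy-numbered or unmatched entries, were ranked by summed start peak width: 8 in every list, 6 for each pair of lists by genotype or UV, 4 for each single list, 4 with no other peak, 4 with the most, all m6A and cap methylation members, and up to 4 in every list and 3 in fewer from each gene list. Alternatives varied the distance limit, the width, the overlap rule, the transcripts and the peaks set beside the start peaks. Some items that the naming rule selects are not reported here.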

Additional observations from a re-analysis of the deposited data

How the results depend on the processing

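The limits are 1 pooled list per condition, unknown depth and an unstated peak caller. No paired analysis was possible because each list pools all replicates of its condition, and for the same reason leaving out each replicate was not run. Of the values recomputed, 108 kept their call, stayed within their interval or, for a count, changed little, 40 moved by more, 10 reversed in sign, 7 lost and 9 gained an interval clear of 0. A difference whose main interval included 0 could change sign among the 108, as WT minus UV not in WT plus UV did at 20 bases (1.34 against -1.51 points) and KO minus UV not in WT minus UV at 150 bases or more (-2.504 against 2.508).

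With starts at most 20 bases from the first base, the start share was 7.095% in KO plus UV, 6.295% in KO minus UV, 6.867% in WT plus UV and 5.983% in WT minus UV, with median widths of 137, 140, 150 and 149 bases. At most 100 bases gave 14.59%, 11.9%, 13.81% and 12.82% in that order, with median widths of 146 in KO plus UV, 159 in WT plus UV and 159 in WT minus UV. Peaks of at least 150 bases gave 6.905%, 5.871%, 7.402% and 6.545%. Per gene, the UV difference in KO cells was 0.5348 points. Start peak genes in every list began with A in 58.76%.

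The share of start peaks without an overlap is given in the order KO plus UV not in KO minus UV, the reverse, WT plus UV not in WT minus UV, the reverse, KO plus UV not in WT plus UV, the reverse, KO minus UV not in WT minus UV, the reverse. With peaks of at least 150 bases it was 24.41%, 38.82%, 24.26%, 13.19%, 10.71%, 45.99%, 23.32% and 30.92%. Counting overlaps with start peaks alone it was 36.34%, 48.17%, 40.29%, 26.02%, 28.76%, 54.64%, 39.73% and 41.6%. At 20 bases WT minus UV not in WT plus UV was 23.66%, WT plus UV not in KO plus UV 53.95% and KO minus UV not in WT minus UV 36.24%, and at 100 bases WT plus UV not in KO plus UV was 48.76%.

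The start minus other difference was the least stable, and the cause was not tested. Most of its values that kept their call are left out below. With peaks of 101 to 199 bases, chosen after seeing the data, it was 1.927 points for KO plus UV not in KO minus UV, -0.6086 for WT plus UV not in WT minus UV, -8.793 for its reverse, -4.469 for KO plus UV not in WT plus UV, -4.746 for its reverse, -4.272 for KO minus UV not in WT minus UV and -1.406 for its reverse. Against other peaks 51 to 300 bases from the first base it was 3.574 for KO plus UV not in KO minus UV, 1.905 for its reverse, 3.547 for KO plus UV not in WT plus UV, 4.748 for its reverse, 5.765 for KO minus UV not in WT minus UV and 1.376 for its reverse. With at least 150 bases it was -0.6444 for WT plus UV not in WT minus UV, -4.532 for its reverse and -2.794 for KO plus UV not in WT plus UV. Restricted to transcripts that both lists mark, it was 3.477 for KO plus UV not in KO minus UV, 3.144 for WT plus UV not in WT minus UV, -2.325 for WT minus UV not in WT plus UV and -0.07934 for KO plus UV not in WT plus UV. At 20 bases it was -1.737 for KO minus UV not in KO plus UV, 3.222 for WT plus UV not in KO plus UV and 5.53 for KO minus UV not in WT minus UV. At 100 bases it was -2.672 for WT minus UV not in WT plus UV, 1.233 for KO plus UV not in WT plus UV and -2.547 for its reverse. On coding transcripts without a copy number it was 2.728 for KO minus UV not in WT minus UV.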
